A study of Mus musculus with 32 samples.

Results

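The chemokines, lymphotoxins and related factors of lymphoid tissue were followed as 10 genes: Cxcl13 and its receptor Cxcr5, Ccl19, Ccl21a and their receptor Ccr7, the lymphotoxins Lta and Ltb and their receptor Ltbr, Tnfsf13b and Glycam1. They were listed by name, with earlier results of these data known, and all 10 were matched among the 32285 genes of the count table. Total RNA was sequenced from 32 whole bladders of female C57BL/6 mice, 1 library per bladder. Untreated mice were young at 2 months (n = 6), middle-aged at 10 months (n = 5) or old at 26 months (n = 6), and further old mice of 26 months were given water (n = 5), vehicle (Phosal 50 PG, polyethylene glycol 400 and ethanol, n = 4) or D + Q in that vehicle (n = 6). D + Q is dasatinib, a kinase inhibitor given at 5 mg/kg/day, with the plant flavonoid quercetin at 50 mg/kg/day, a pair used as a senolytic. Gavage was on 3 days in a row of each month between 21 and 26 months of age.

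CXCL13 draws B cells and follicular helper T cells that carry CXCR5 into follicles, while CCL19 and CCL21 draw T cells and dendritic cells that carry CCR7 into the zone beside them. Lymphotoxin, made by lymphocytes as a trimer of LTA and LTB, acts on LTBR of stromal cells through the non-canonical NF-kappaB pathway, and stroma so stimulated makes more CXCL13. This loop shapes lymph nodes, and clusters of B cells with the same features form in chronically inflamed or aged organs, the female mouse bladder among them. TNFSF13B, or BAFF, keeps B cells alive, and GLYCAM1 is a mucin of high endothelial venules, the vessels through which lymphocytes enter lymph nodes.

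Each bladder had 15088372 to 52650259 counts, and the 4 shallowest (young 3 and 4, water-treated 1 and vehicle-treated 4) had 21252772 or fewer. Levels are CPM, counts divided by library size after scaling by trimmed means of M values (TMM), and a floor of 3 counts stood at 0.0572 to 0.205 CPM, which covers counting error only. The 8 urothelial markers summed to 3955 to 5251 CPM per bladder, so each library held the labelled tissue. The labels and methods give no batch. In whole tissue, fewer cells of a type and less RNA per cell cannot be told apart. Mice were group housed, the labels do not say which shared a cage or litter, and p-values measure the spread between these bladders.

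The Ccl21 sequences are shown first because they bear on what the table can say about this chemokine. Ccl21a (ENSMUSG00000094686, chr4:42772860-42773993 of mm10, minus strand) has 4 annotated copies, Ccl21b, Gm10591, Gm13304 and Gm21541. Of the 796 stretches of 75 bases in the Ccl21a transcripts, 488 (61.3%) also occur in transcripts of a copy. Over the 402 bases compared with Ccl21b, the only differences were T159A and C269T, with the Ccl21a base first and positions counted from 1 at the 5′ end of the Ccl21a transcript. The differing base is in capitals in the stretches of Ccl21a exon 2 (chr4:42773723-42773763) and exon 3 (chr4:42773508-42773548), each beside Ccl21b.
Ccl21a exon 2: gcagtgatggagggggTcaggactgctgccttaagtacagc
Ccl21b exon 2: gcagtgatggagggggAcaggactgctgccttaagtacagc
Ccl21a exon 3: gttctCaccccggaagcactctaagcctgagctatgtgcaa
Ccl21b exon 3: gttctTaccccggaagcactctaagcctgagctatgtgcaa
The same T159A and C269T stood in Gm10591, Gm13304 and Gm21541, and the last had 6 differences over 870 bases. How reads that map to more than 1 place were counted is not given in the sources used here.

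Ccl21a was listed at 0 in 30 of the 32 bladders, and its highest count was 1. Summed with its copies, the row still held 1 count at most in any bladder. The 7 other lymphatic endothelial markers were present in every group, and with Ccl21a the list summed to 150 to 227 CPM per bladder. No level, fold or test of Ccl21a is therefore given. Ccl19 (ENSMUSG00000071005, chr4:42754525-42756577, minus strand) was also scarce, at 0 to 17 counts per bladder, and 45.3% of its stretches of 75 bases occur in transcripts of annotated relatives such as Ccl19-ps3 and Gm2564. Its counts were 0 to 5 in young, 0 to 3 in middle-aged and 1 to 17 in untreated old bladders, which overlap. They were 2 to 4 in water-treated, 1 to 9 in vehicle-treated and 1 to 13 in D + Q-treated bladders. Neither ligand of CCR7 passed edgeR's filter on low counts in any comparison, so 8 members were tested at most.

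Promoters are shown for the 2 members whose windows held a motif that was searched, since NF-kappaB acts both in the lymphotoxin loop and on these genes. Both strands of the 250 bases before each RefSeq start (GRCm38.p6) were searched for a consensus kappaB motif and for a variant known from the Cxcl13 promoter. The capitals spell each motif, in Cxcl13 as it was searched and in Ltb as its reverse complement. Entries were there for 8 members, and not for Cxcr5 and Ccr7. The consensus motif stood in 46 of 32851 promoters (0.14%), among members only in Ltb, on the strand opposite to the gene. It stands from 87 bases before the RefSeq start of Ltb, which lies inside the counted gene model. Of the 250 bases searched for Ltb, only the 182 before that model are printed. The variant begins 114 bases before the start of Cxcl13, the gene it was taken from, so that match was fixed by the choice of motif, and no other member held it. The 2 motifs did not overlap, and the match is in capitals in the Cxcl13 window (chr5:95956689-95956938, plus strand) and in the Ltb window (chr17:35194257-35194438, plus strand, ending where the counted gene model begins).
Cxcl13 promoter: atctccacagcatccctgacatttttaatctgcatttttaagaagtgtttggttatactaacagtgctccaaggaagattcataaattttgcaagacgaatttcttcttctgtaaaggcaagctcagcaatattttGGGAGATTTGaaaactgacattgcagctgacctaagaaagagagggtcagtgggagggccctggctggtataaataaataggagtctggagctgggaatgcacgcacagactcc
Ltb promoter: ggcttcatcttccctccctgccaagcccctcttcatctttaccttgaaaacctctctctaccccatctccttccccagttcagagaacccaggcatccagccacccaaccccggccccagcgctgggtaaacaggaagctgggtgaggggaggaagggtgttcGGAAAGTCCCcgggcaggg

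Between middle age and old age, most tested members rose. Cxcr5, Glycam1, Ltb, Cxcl13, Lta, Ccr7 and Tnfsf13b had higher levels in the untreated old group than in the middle-aged one, from 27.0-fold for Glycam1 and 25.2-fold for Cxcr5 to 1.39-fold for Tnfsf13b. Ltbr, which encodes the receptor of lymphotoxin, was the only tested member with a lower level, by 0.12 on the log2 scale. Of 8 tested members, 7 were higher and 1 was lower with an adjusted p under 0.05 in edgeR's quasi-likelihood test, where 13.0% of all 17156 genes tested were higher (2231 higher and 1879 lower, or 1632 and 2392 by limma on log2(TPM + 1)). The median log2 fold change was 2.29 over the tested members and -0.00471 over all genes. For 4 of them (Cxcl13, Cxcr5, Ltb and Tnfsf13b) each old bladder was above each middle-aged one, as for 8.49% of all genes. The plot of levels by bladder shows the groups side by side.

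**Figure D1:**
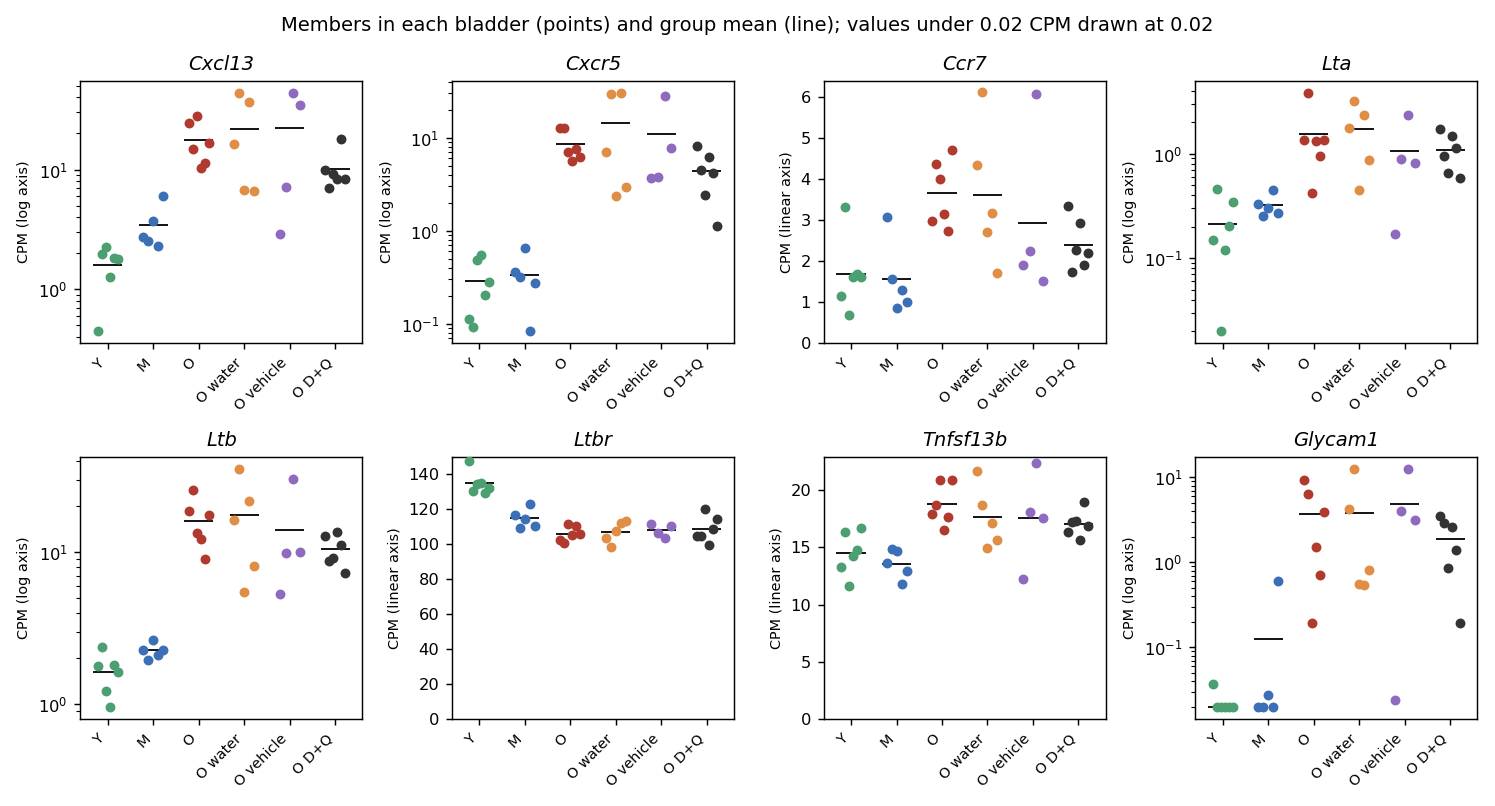
CPM of the 8 tested members (vertical axis, logarithmic except for Ccr7, Ltbr and Tnfsf13b) in each bladder of the young (Y), middle-aged (M) and 4 old groups (O), with a line at each group's mean and values under 0.02 drawn at 0.02. Cxcl13, Cxcr5, Ltb and Tnfsf13b separate untreated old from middle-aged bladders, Ltbr is near 106 CPM in old bladders, and the gavaged old groups overlap the untreated old group in every panel.

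Cxcl13 (ENSMUSG00000023078, chr5:95956951-95961068), the follicular chemokine, was measured at 0.449 to 2.25 CPM in young bladders (median 1.82, n = 6). The 5 middle-aged bladders held 2.30, 2.53, 2.74, 3.69 and 6.05 CPM. Untreated old bladders held 10.3 to 27.8 CPM (median 15.8, n = 6). The 3 ages thus did not overlap, as for 3.37% of all genes from young to middle age and 6.70% from young to old age in that direction. From 3.46 ± 1.54 CPM (SD, n = 5) in middle age to 17.6 ± 7.13 CPM (SD, n = 6) in old age, the log2 fold change was 2.33 ± 0.32 (SE, adjusted p = 0.000249).

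Cxcr5 (ENSMUSG00000047880, chr9:44511787-44561877), the CXCL13 receptor of B cells and follicular helper T cells, was near the floor until middle age. Young bladders held 3 to 9 counts (0.0919 to 0.541 CPM) and middle-aged bladders 3, 10, 10, 11 and 24 counts (0.0832 to 0.657 CPM). Untreated old bladders held 196 to 445 counts, or 5.56 to 12.7 CPM with a median of 7.25. Every old bladder was thus far above every younger one, while young and middle-aged bladders overlapped. The step from middle to old age was 4.65 ± 0.38 on the log2 scale (SE, adjusted p = 6.69e-06). Cxcr5 shares 110 exonic bases with Bcl9l on the opposite strand, and 1.11% of its stretches of 75 bases occur there.

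Ccr7 (ENSMUSG00000037944, chr11:99144196-99155077), the receptor of naive T cells and migrating dendritic cells, rose less. Middle-aged bladders held 0.848, 1.0, 1.30, 1.55 and 3.07 CPM, and untreated old bladders 2.74 to 4.71 CPM (median 3.57). The highest middle-aged bladder was within the old range. The log2 fold change was 1.25 ± 0.29 (SE, adjusted p = 0.00775).

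Lta and Ltb lie near each other on chromosome 17 (chr17:35203165-35205351, minus strand, and chr17:35194439-35196320, plus strand). Ltb (ENSMUSG00000024399), the membrane-bound partner, stood at 1.96, 2.11, 2.28, 2.28 and 2.65 CPM in middle-aged bladders and at 9.05 to 25.5 CPM (median 15.5) in untreated old bladders. No old bladder was within the middle-aged range, and the log2 fold change was 2.83 ± 0.24 (SE, adjusted p = 8.07e-06). Lta (ENSMUSG00000024402), the secreted partner, stood at 0.253, 0.271, 0.301, 0.326 and 0.444 CPM in middle age and at 0.418 to 3.81 CPM (median 1.34) in old bladders. Its groups overlapped in 1 old bladder, and the log2 fold change was 2.25 ± 0.48 (SE, adjusted p = 0.00477).

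Ltbr (ENSMUSG00000030339, chr6:125306571-125313885), the receptor on stromal and other cells, changed in the other direction from its ligands. Young bladders held 129 to 148 CPM, middle-aged bladders 109, 110, 115, 117 and 123 CPM, and untreated old bladders 100 to 111 CPM. The fall was larger from young to middle-aged bladders, which did not overlap (3.59% of all genes in that direction), than from middle-aged to old ones, which did. The second step, -0.12 ± 0.04 on the log2 scale (SE, adjusted p = 0.0416), kept its direction in every alternative but passed the threshold in only 4 of 11 fits that left out 1 bladder. Without untreated old replicate 1, for example, the adjusted p was 0.0874.

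Tnfsf13b (ENSMUSG00000031497, chr8:10006467-10039072), the B-cell survival factor BAFF, rose by little but evenly. It stood at 11.8, 12.9, 13.6, 14.7 and 14.8 CPM in middle-aged and at 16.5 to 20.9 CPM (median 18.3) in untreated old bladders, which did not overlap. Young bladders held 11.7 to 16.7 CPM and did overlap the old ones. The log2 fold change was 0.47 ± 0.08 (SE, adjusted p = 0.00102).

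Glycam1 (ENSMUSG00000022491, chr15:103562759-103565081), the endothelial mucin, was the member that differed most between bladders. It had 1 count in all 6 young bladders together, and 0, 0, 0, 1 and 22 counts in the middle-aged ones. Untreated old bladders held 6, 29, 53, 204, 226 and 299 counts, or 0.193 to 9.39 CPM. A single middle-aged bladder, replicate 5, was thus above the lowest old bladder. The log2 fold change was 4.76 ± 1.12 (SE, adjusted p = 0.00849), and 8.40 without that bladder, a fitted value that depends on the prior count and is no bound. Against young bladders no fold is given. Glycam1 is also a milk protein gene, so mammary markers were measured: 8 genes summed to 0.0942 to 0.857 CPM in untreated old bladders, Csn1s1 and Csn1s2a were listed at 0 there, and Csn3 stood at 0.286 ± 0.239 CPM (SD, n = 6). In middle-aged bladders the 8 genes summed to 0.0634 to 0.163 CPM, and Csn3 stood at 0.0316 ± 0.0565 CPM (SD, n = 5). The mean of Csn3 was thus also higher in old bladders, near the floor and with overlapping ranges. None of the 8 could be tested between old and middle-aged bladders, and a mammary source of Glycam1 was not tested.

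Levels of different members were compared per gene length as TPM, the share of each transcript after division by gene length. In untreated old bladders the order was Ltbr (154 ± 8.58 TPM), Cxcl13 (52.5 ± 21.7), Ltb (36.4 ± 13.8), Tnfsf13b (9.37 ± 0.797), Cxcr5 (8.9 ± 3.51), Ccr7 (6.32 ± 1.32), Glycam1 (5.91 ± 5.91), Lta (3.84 ± 3.06) and Ccl19 (0.575 ± 0.418 TPM, all SD, n = 6). Given the stretches that Ccl19 shares with its relatives, its level may be an undercount, which was not tested. Ltbr, at 141 to 165 TPM, was above all others in each bladder. Cxcl13 and Ltb overlapped in range but lay above the 5 members from Tnfsf13b to Lta. Among those 5 each neighboring pair in the order overlapped, while Tnfsf13b and Ccr7 did not. The young order was Ltbr (200 ± 8.66 TPM), Tnfsf13b (7.40 ± 1.06), Cxcl13 (4.86 ± 1.97), Ltb (3.79 ± 1.20) and Ccr7 (2.98 ± 1.60 TPM), with Lta, Ccl19, Cxcr5 and Glycam1 each under 1 TPM on average.

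Between young and middle-aged bladders 6 members could be tested, and Lta, Glycam1, Ccl19 and Ccl21a could not. Of these 1 rose and 1 fell, where 4.96% of all 16754 genes were higher and 5.85% lower. Cxcl13 rose from 1.59 ± 0.647 CPM (SD, n = 6) to 3.46 ± 1.54 CPM (SD, n = 5), a log2 fold change of 1.14 ± 0.33 (SE, adjusted p = 0.0458). This call was lost in 8 of the 11 fits that left out a single bladder, with a log2 fold change of 0.84 to 1.26, and the adjusted p was 0.142 without middle-aged replicate 5. Ltbr fell by 0.22 ± 0.05 on the log2 scale (SE, adjusted p = 0.0122), a call kept in all 11 such fits. For Ltb the value was 0.44 (adjusted p = 0.161), and for Cxcr5 it was 0.43 (adjusted p = 0.638) with a 95% interval of -0.68 to 1.54. Over the whole span from young to untreated old, 6 of 7 tested members were higher and Ltbr was lower, against 12.6% higher and 12.4% lower among all 16873 genes (2134 and 2095 genes, or 2529 and 1483 with scaling by library size alone). Cxcr5 was then 33.9-fold, Cxcl13 11-fold and Ltb 9.51-fold higher, with adjusted p of 1.62e-06, 1.24e-05 and 3.38e-06.

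Many markers of immune cells moved with these transcripts. All 10 B-cell markers rose between middle and old age, with a median log2 fold change of 4.21, and their sum was 106 to 313 CPM in untreated old and 11 to 19.9 CPM in middle-aged bladders. All 10 T-cell markers were higher as well, with a median of 2.74 and sums of 54.8 to 126 against 13.6 to 16.9 CPM. Plasma cell markers were higher for 7 of 8, macrophage markers for 9 of 10 and dendritic cell markers for 4 of 10, and no marker of these 5 lists was lower. Their part in the rise of the members was not tested. Cxcr5, which is not 1 of those markers, was equal to 3.24 to 6.56% of the B-cell marker sum in untreated old bladders. It was equal to 0.758 to 3.90% in middle-aged and, at 3 to 9 counts, to 0.690 to 9.28% in young bladders, and all 3 ranges overlap. Cxcl13, which stromal cells make, was equal to 5.01 to 26.2% of that sum in old, 20.7 to 30.5% in middle-aged and 5.15 to 24.4% in young bladders.

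The other genes of the pathway were counted in 6 lists. In lymphotoxin and TNF signaling, 10 of 13 tested genes rose between these ages and none fell, with a median log2 fold change of 0.31. Tnfsf14, which encodes LIGHT, a further ligand of LTBR, rose from 0.641 ± 0.192 to 1.76 ± 0.226 CPM (log2 fold change 1.45, adjusted p = 0.000124). Birc3, an inhibitor of apoptosis induced by NF-kappaB, rose by 0.46 on the log2 scale (adjusted p = 0.000257), and Tnfrsf14, the other receptor of LIGHT, by 0.48 (adjusted p = 0.000542). In the BAFF and APRIL list 3 of 4 genes were higher, namely the receptors Tnfrsf13c (log2 fold change 4.11, adjusted p = 3.58e-05), Tnfrsf13b (2.15, adjusted p = 4.93e-05) and Tnfrsf17 (1.47, adjusted p = 0.045).

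Among other homing chemokines and receptors, 12 of 13 tested genes were higher and none was lower, with a median log2 fold change of 1.55. The lymphocyte receptors Cxcr3 (log2 fold change 2.01), Cxcr4 (1.67) and Cxcr6 (1.46) had the smallest p-values there (adjusted p = 2.44e-05, 4.43e-05 and 4.07e-05). In the list of high endothelial venules and addressins, 8 of 13 were higher, with a median of 0.59, led by the integrins Itga4 (1.20, adjusted p = 3.29e-06), Itgal (2.11, adjusted p = 3.30e-06) and Itgb7 (1.09, adjusted p = 3.71e-06). Those 3 genes encode lymphocyte proteins that bind endothelium, not endothelial ones. Chst4, a sulfotransferase of high endothelial venules, stood at 1.01 to 1.98 CPM in middle-aged and 1.5 to 3.74 CPM in old bladders (log2 fold change 0.59, adjusted p = 0.128). Young bladders held 1.56 to 3.33 CPM of Chst4, which overlaps the old range. Madcam1, the mucosal addressin, had 0 to 2 counts in middle-aged and 0 to 7 counts in old bladders.

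In the follicular dendritic and reticular stroma list 6 of 9 tested genes were higher, with a median of 0.52. Among them were the adhesion molecule Vcam1 (0.72, adjusted p = 7.1e-05), the lymphocyte growth factor Il7 (0.50, adjusted p = 0.00057) and Enpp2 (0.24, adjusted p = 0.0139), which makes lysophosphatidic acid. Vcam1 is also counted in the venule list. Cr2, Ch25h and Tnfsf11 were not called (adjusted p = 0.0734, 0.147 and 0.0563). Which cells held these transcripts was not tested. In the germinal center and follicular helper T list 8 of 10 were higher, with a median of 1.43, among them the transcription factor Bcl6 (0.41, adjusted p = 7.16e-06), the costimulator Icos (2.16, adjusted p = 8.94e-05) and Sh2d1a (3.39, adjusted p = 0.000115), which T cells need to help B cells. No tested gene of these 6 lists was lower. The plot of the lists shows every tested gene.

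**Figure D2:**
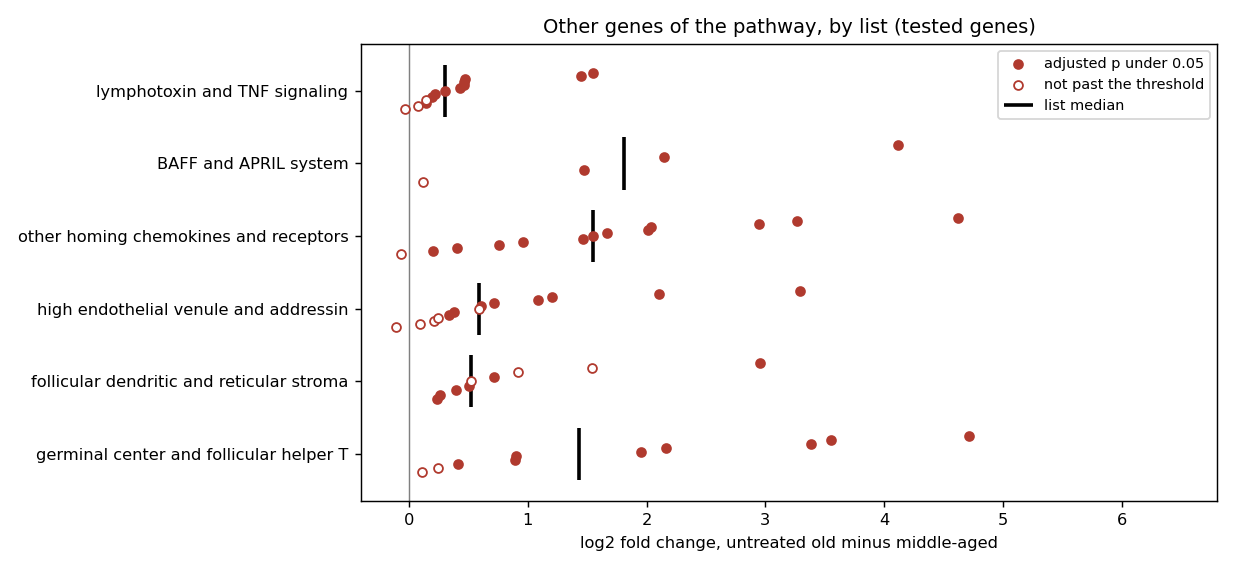
Log2 fold change between untreated old and middle-aged bladders (horizontal axis) for each tested gene of 6 pathway lists (rows). Filled points passed an adjusted p under 0.05, open points did not, and the bar is the median of the list, from 0.31 for lymphotoxin and TNF signaling to 1.81 for BAFF and APRIL.

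The gavaged old groups were compared with untreated old bladders of the same age, 26 months. With groups this small, the lack of a call does not exclude a difference. No member was called in water-treated, vehicle-treated or D + Q-treated against untreated old bladders by edgeR, DESeq2 or limma. The background was 0.487% of 17250 genes higher and 0.516% lower with water, and 0% called of 17440 with vehicle and of 17037 with D + Q. At an unadjusted p under 0.05 there was no member with water or vehicle, where 16.0% and 8.39% of all genes had such a p, and 4 with D + Q (Cxcl13, Cxcr5, Ccr7 and Ltb), where 12.9% had. All 3 comparisons share the untreated old bladders.

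In D + Q-treated bladders 7 of 8 tested members had values below those of untreated old bladders, as 49.1% of all genes did. Cxcl13 stood at 7.04 to 17.9 CPM (median 8.77) after D + Q and at 10.3 to 27.8 CPM without treatment, and the groups overlapped. Its log2 difference was -0.80 ± 0.27 (SE), with a 95% interval of -1.39 to -0.21 and an adjusted p of 0.309. Cxcr5 stood at 1.11 to 8.13 CPM (median 4.34) against 5.56 to 12.7 CPM, a difference of -0.96 with an interval of -1.79 to -0.14 (adjusted p = 0.344). The value was -0.62 for Ltb (interval -1.11 to -0.13, adjusted p = 0.326) and -0.61 for Ccr7 (interval -1.0 to -0.22, adjusted p = 0.279). The intervals are for each gene alone, and none of these differences passed adjustment over all genes. B-cell markers had values below 0 for 10 of 10 genes (median -0.73) and T-cell markers for 10 of 10 (median -0.71), none of them called, and their part in the members' differences was not tested. D + Q-treated replicate 6, with the lowest Cxcr5 of the group, also stood apart in 6 erythroid genes, which summed to 3510 CPM against 225 to 897 CPM in the other 5, and without it no member was called either.

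Against its own controls D + Q gave no call. Cxcl13 differed by -1.13 from vehicle-treated (interval of the difference -2.42 to 0.16) and by -1.14 from water-treated bladders, and no gene at all was called by edgeR in either comparison (0% of 17267 and of 17161 genes), nor any member by DESeq2 or limma. At an unadjusted p under 0.05 there was no member against vehicle (4.18% of all genes), and there were Cxcl13 and Cxcr5 against water (7.82%). With water the log2 differences from untreated old were -0.09 to 0.76 and with vehicle -0.53 to 0.43. The only gene of the 6 pathway lists that was called in any of these 5 comparisons was Chuk, a kinase of the NF-kappaB pathways, lower with water by 0.19 on the log2 scale (adjusted p = 0.0464).

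**Figure D3:**
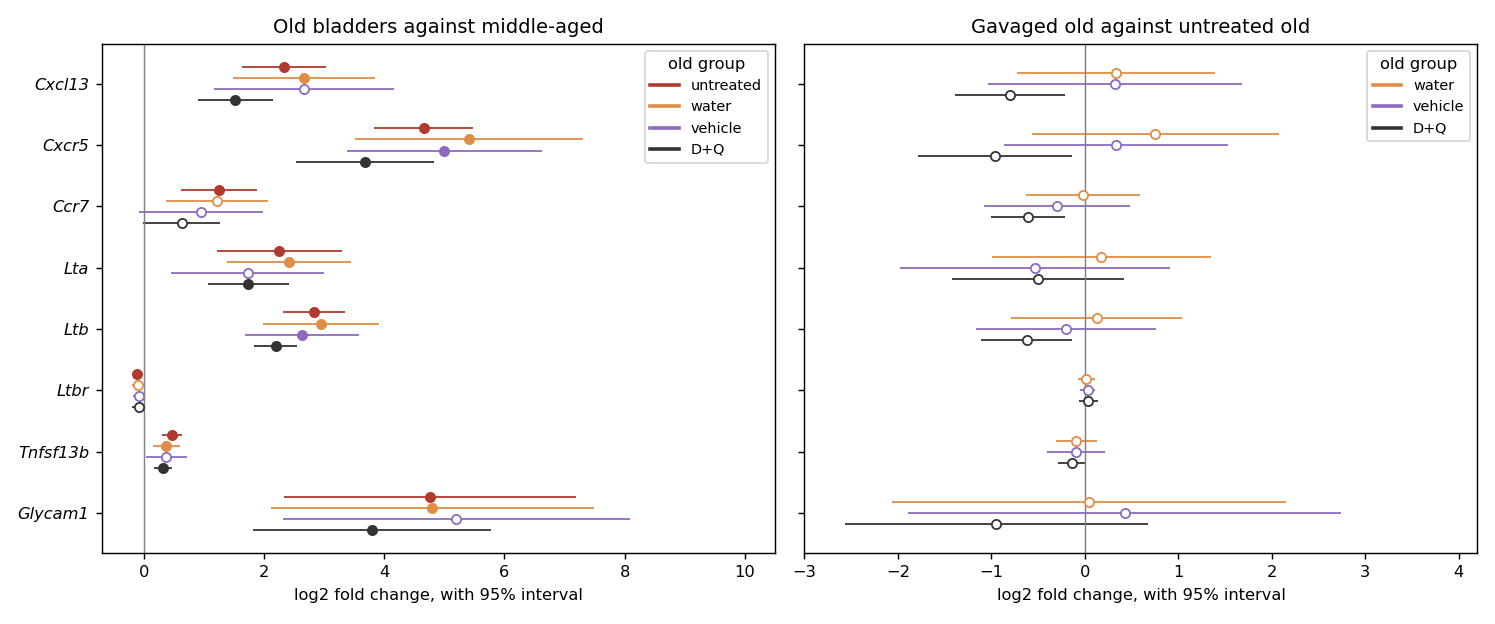
Log2 fold changes with 95% intervals (horizontal axis) of the 8 tested members (rows), for each old group against middle-aged bladders on the left and for each gavaged group against untreated old bladders on the right. Filled points passed an adjusted p under 0.05, and on the right no point is filled.

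Each gavaged old group was also set against middle-aged bladders. Water-treated bladders had 6 members higher (8.02% of all genes), D + Q-treated bladders 6 (7.58%) and vehicle-treated bladders 2, Cxcr5 and Ltb (3.02%). These comparisons share the 5 middle-aged bladders. Over all genes, 1366 were higher and 891 lower with water, 1288 and 773 with D + Q, and 519 and 261 with vehicle, which limma on log2(TPM + 1) turned to 1016 and 1384, 1019 and 2129, and 220 and 430. In vehicle-treated bladders Cxcr5 was 3.64, 3.73, 7.80 and 28.0 CPM and Cxcl13 was 2.91, 7.13, 34.7 and 43.4 CPM, so a group of 4 spanned more than the untreated old one. Its log2 fold changes from middle age were 5.00 for Cxcr5 (adjusted p = 0.00922), 2.63 for Ltb (adjusted p = 0.0123), 2.66 for Cxcl13 (adjusted p = 0.0529) and 5.20 for Glycam1 (adjusted p = 0.0508). The median over the 8 tested members was 2.18 with vehicle, 2.54 with water and 1.63 with D + Q. Without vehicle-treated replicate 1, which had the lowest Cxcl13, Cxcr5 and Ltb of its group, 6 members were higher. In D + Q-treated bladders the log2 fold change from middle age was 3.68 for Cxcr5 (adjusted p = 0.000636), 2.20 for Ltb (adjusted p = 1.77e-05), 1.74 for Lta, 1.52 for Cxcl13, 0.32 for Tnfsf13b and 3.80 for Glycam1.

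Bladders of the old groups also differed widely among themselves. Over the 21 old bladders, the highest Cxcr5 was 27.2 times the lowest, the highest Lta 22.6, Cxcl13 14.9, Ltb 6.68 and Ccr7 4.02 times, while for Tnfsf13b the ratio was 1.84 and for Ltbr 1.22. Water-treated replicates 2 and 4 and vehicle-treated replicate 3 held 28.0 to 30.2 CPM of Cxcr5, and no other bladder held more than 12.7. The same 3 held 36.6 to 43.5 CPM of Cxcl13, and their B-cell marker sums were 360 to 525 CPM. Glycam1 did not follow in one of them, since water-treated replicate 4 had 27 counts (0.544 CPM) where the others had 478 and 510.

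Within the old groups, with each group centered on its mean, members were correlated over the 21 bladders on log2(CPM + 0.1), and 28 pairs of 8 members were tested with 100000 permutations within groups. Of these, 19 pairs had an adjusted p under 0.05 by Pearson's r, and 15 by both r and Spearman's rho. Lta and Ltb gave r = 0.885 and rho = 0.899 (permutation p = 2e-05 for both, adjusted 0.00028 and 0.000187). Cxcr5 and Ltb gave r = 0.873 (permutation p = 1e-05, the smallest the permutations can give, adjusted 0.00028) and rho = 0.860. For Cxcl13 and Cxcr5, r was 0.742 (permutation p = 0.00303, adjusted 0.00771) and rho 0.740 (adjusted 0.0075), and without the 2 bladders farthest in Cxcl13 r was 0.702.

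Glycam1 went with Lta (r = 0.826, adjusted permutation p = 0.000784) and Ltb (r = 0.741, adjusted p = 0.00644), and less clearly with Cxcl13 (r = 0.508, adjusted p = 0.0856). Ltbr had a negative r with each of the 7 other members, from -0.22 with Tnfsf13b to -0.75 with Glycam1 (adjusted permutation p = 0.00028, rho = -0.827), and 5 of these 7 passed by r. The r of Cxcl13 with Lta dropped from 0.595 to 0.372 and that with Tnfsf13b from 0.718 to 0.491 without 2 bladders, so these relations rest in part on those samples. Every pair kept its sign when the D + Q-treated bladders were left out. The libraries' share of lymphocyte RNA is common to these points, and its part in the correlations was not tested.

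**Figure D4:**
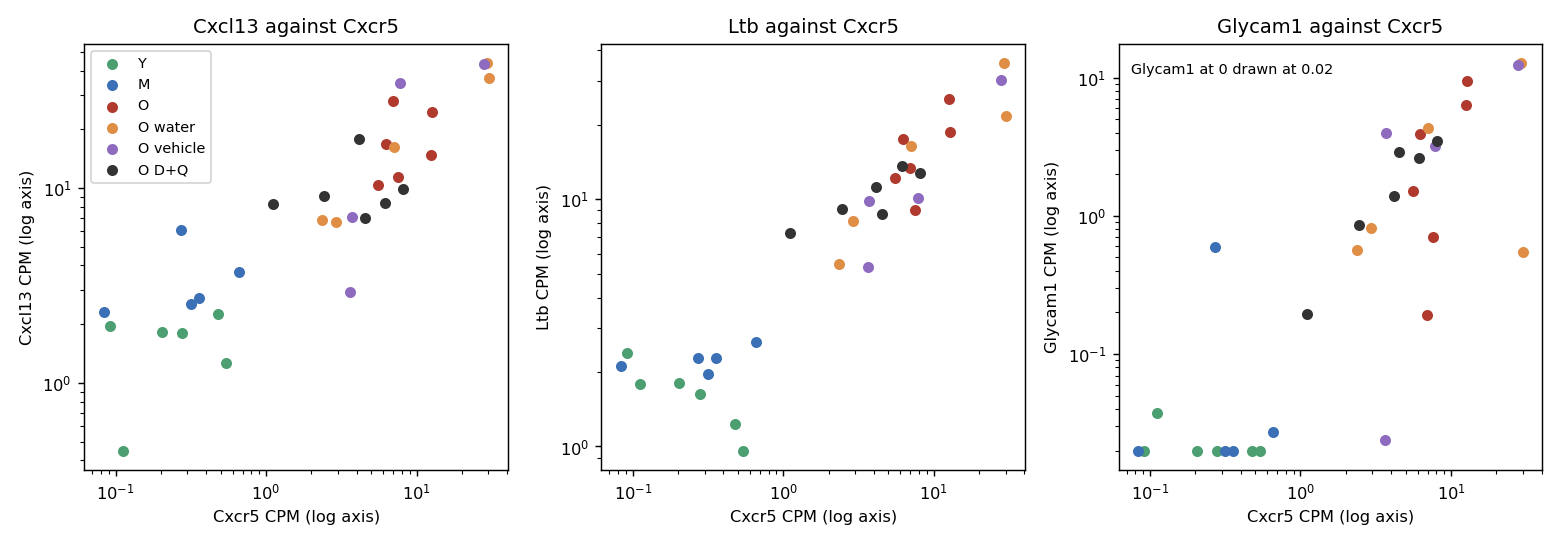
CPM of Cxcl13, Ltb and Glycam1 (vertical axes) against Cxcr5 (horizontal axis), all logarithmic, with 1 point per bladder colored by group. Old bladders lie above 1 CPM of Cxcr5 and younger ones under 0.7, and 1 water-treated bladder with 30.2 CPM of Cxcr5 lies low in Glycam1, at 0.544 CPM.

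Over all 32 bladders, the genes outside the lists whose levels followed those of members most closely by Spearman's rho were A530040E14Rik (0.954), Fcho1 (0.929) and Tbc1d10c (0.927) for Cxcl13, Sept1 (0.944), Tmem163 (0.940) and A530040E14Rik (0.935) for Cxcr5, and A530040E14Rik (0.973), H2-Ob (0.962) and Cd37 (0.962) for Ltb. These points share the age difference and the lymphocyte content of each bladder, so the values are a description. Ccl19 had too few counts for such a ranking.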

How the data were processed

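Total RNA libraries (TruSeq Stranded) of 32 bladders were aligned by the authors with STAR 2.7.3 to mm10 and counted per gene with featureCounts of Subread. The authors deposited raw counts without normalization and, as the other unit in that table, summed exon lengths in bases. The strandedness of counting and the handling of reads with several places are not given in the sources used here. The deposited normalized table was not used. CPM (with TMM factors over 32 bladders) and TPM were computed here from the counts.

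Each of 11 comparisons was fitted across all genes with edgeR 4.0.16 in R 4.3.3 (TMM, filterByExpr, quasi-likelihood test, Benjamini-Hochberg adjusted p under 0.05), with the bladders of its 2 groups only. The code was tested on simulated data. Groups came from the labels, and no 2 libraries were identical. The alternatives were library size alone, DESeq2 1.42.0, no filter, a minimum of 10 counts per bladder, 1 fit over all 6 groups, limma 3.58.1 on log2(TPM + 1) and log2(TPM + 0.1), a replicate block, and each bladder left out. A further alternative, chosen after seeing the data, left out the 4 shallowest bladders.

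The members and the 6 pathway and 13 marker lists were chosen with earlier results of these data known. Named list genes are the 3 with the smallest p between untreated old and middle-aged bladders, plus any called in a gavage comparison. Chst4, Madcam1, Csn3, Lyve1, Cr2, Ch25h and Tnfsf11 were named after their values were seen. For Cxcl13, Cxcr5, Ccl19 and Ltb, the 3 genes of highest rho outside the members, lists and antigen receptor segments are named. Promoters are from RefSeq on GRCm38.p6, and transcripts and annotation from GENCODE on mm10. Python 3.11.15 and scipy 1.17.1 were used.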

Additional observations from a re-analysis of the deposited data

Results flagged for a closer look

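Among 52 sets of a member in a group, 7 had a bladder farther from the rest than Dixon's 95% limit allows, where chance flags about 1 in 20 (2.6 sets), and sets of the same bladders are not independent. Vehicle-treated replicate 3 stood above its group in Cxcr5 (28.0 CPM, next 7.80) and Ccr7 (6.08 CPM, next 2.25). D + Q-treated replicate 5 stood above its group in Cxcl13 (17.9 CPM, next 9.82), and untreated old replicate 2 in Lta (3.81 CPM, next 1.35). Middle-aged replicate 5 stood above its group in Glycam1, at 0.597 CPM where the next bladder held 0.0274. Young replicate 1 was the highest in Ltbr (148 CPM, next 135), and young replicate 3, 1 of the shallowest libraries, in Ccl19, at 0.341 CPM or 5 counts. No cause was tested.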

How the results depend on the processing

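No member was called in the 5 comparisons among old groups under any alternative, leave-one-out fits included. For middle-aged against young, 2 members were called, and 1 with all 6 groups in 1 fit, with either limma setting and with the replicate block, and 1 to 2 without single bladders. There the log2 fold change of Ccr7, not called, ran from -0.54 to 0.16. For untreated old against middle-aged, 8 became 4 with at least 10 counts in every bladder, which leaves fewer members to test, and 7 to 8 without single bladders. For old against young, the range without single bladders was 7 to 8. Against middle-aged, 6 with water became 3 with at least 10 counts and 4 to 7 without single bladders. With vehicle, 2 became 4 with DESeq2, with no filter and with all 6 groups in 1 fit, 1 with the replicate block, and 2 to 6 without single bladders. With D + Q, 6 became 3 with at least 10 counts, 2 with all 6 groups in 1 fit, and 6 to 7 without single bladders. Deviations of bladders with the same replicate number in their titles correlated at -0.29 to 0.15. The library names number some middle-aged, water-treated and vehicle-treated bladders otherwise. Pairing by those numbers was not tested, by this check or by the replicate block. Leaving out the 4 shallowest bladders gave 2, 8, 5 and 2 members for middle-aged against young, old against young, water and vehicle against middle-aged, and 0 in the comparisons among old groups that it touched. The cause of these moves was otherwise not tested. The Ccl21 rows summed gave no fold, since no bladder held more than 1 count.

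In the stroma list 6 genes became 3 with all 6 groups in 1 fit and with limma, and in the germinal center list 8 became 4 with at least 10 counts. Over all genes, DESeq2 called 180 for D + Q, 132 for vehicle and 703 for water against untreated old, where edgeR called 0, 0 and 173, and 10 and 69 for D + Q against vehicle and water. For water against untreated old, no filter gave 99, and all 6 groups in 1 fit, limma and the block gave 0. The block gave 1 for D + Q against water. All 6 groups in 1 fit gave 2519 genes in place of 4110 for old against middle-aged, 2857 in place of 1811 for middle-aged against young, 1199 in place of 2061 for D + Q and 1448 in place of 780 for vehicle against middle-aged. For the last, DESeq2 gave 1689 and the block 103, limma gave 3156 and 3148 for D + Q against middle-aged, and the block gave 711 for middle-aged against young.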

Other observations

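Markers of other cell types were also compared between middle-aged and untreated old bladders, where 2231 of all 17156 genes tested were higher and 1879 were lower. Of 8 markers each, blood endothelium had 3 lower, urothelium 4, smooth muscle 2, fibroblasts 1 and adipocytes 0, and none of these was higher. Of 7 tested lymphatic endothelial markers 3 were higher and 1 was lower, with Lyve1, a hyaluronan receptor, at a log2 fold change of 0.70 (adjusted p = 0.000159). Of 5 tested erythroid genes 1 was higher, with a median log2 fold change of 1.28, and the median of the adipocyte markers was 0.66 with none called. Counts of 1 in such short lists are near the share over all genes.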
